A study of Caenorhabditis elegans with 3 samples.

Results

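The miRNA genes described here are those of Caenorhabditis elegans contacted by Dicer that lie outside the large or best-known families. They were chosen by annotation among genes with a called cluster, so a gene without a cluster could not enter. Every gene with a mir- name on a cluster that the authors classed as miRNA, in any of their lists, was taken. Left out were let-7, lin-4, mir-1, mir-34, mir-48, mir-58, mir-60, mir-71, mir-84, mir-228, mir-237, mir-238, mir-239a, mir-239b, mir-241, mir-244, mir-246 and the mir-35, mir-51, mir-64 and mir-80 groups. This gave 62 genes of the 100 miRNA genes with a cluster, and the other 38 are called the other miRNA genes below. Of the 62, 59 had a cluster in the authors' pooled consensus list and 54 in their stricter conservative list, and 40 had one in T1 replicate 3, and 29 and 18 in T1/V1 replicates 1 and 2.

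The libraries came from whole young adult worms of a single strain, FLAG:DCR-1, a rescue strain in which DCR-1 carries a FLAG tag. DCR-1 is the only Dicer of this worm. Contacts were mapped by PAR-CLIP, in which UV light links 4-thiouridine in the RNA to the bound protein, and the linked bases appear as T-to-C conversions. One library, T1 replicate 3, is labelled with RNase T1 and carried a default 3' adapter. The other 2, T1/V1 replicates 1 and 2, are labelled with RNases T1 and V1 and carried a custom 3' adapter, so nuclease and adapter cannot be told apart. RNase T1 cuts unpaired RNA after G, and RNase V1 cuts base-paired RNA. The series' description names both RNases for the experiment and does not say which library had which, so the titles were followed. The promoter of the tagged gene is not stated. Every library held the same tagged strain, and no untagged control was analysed here.

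A miRNA gene is transcribed as a longer RNA from which the Drosha complex cuts a hairpin, and Dicer then removes the loop and leaves a duplex of the 5' and the 3' arm, of which mostly 1 strand is loaded into an Argonaute protein. Mirtrons skip the Drosha cut: the spliced and debranched intron is itself the hairpin, so Dicer is the nuclease both kinds share. Members of a miRNA family share their seed, the bases that pair with targets, and can act redundantly. Many genes described here have narrow expression, as in sensory neurons for mir-124, or act in a few cells, as mir-61 does in vulval precursor cells.

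The lists held 24992 reads in T1 replicate 3, and 7829 and 10834 in T1/V1 replicates 1 and 2, of which clusters of miRNA class held 17.3%, 22% and 11.1%. The consensus list held 92004 reads, which is 2.11 times the 43655 reads of the 3 library lists together, so its values are not a sum of the listed library values. Which libraries back a pooled cluster is not given, and its values are quoted as the authors' own. Separate cultures are not mentioned in the labels, and differences between libraries may be technical. Intervals are exact (Clopper-Pearson) 95% binomial intervals that cover counting error only, since reads copied by PCR are not independent molecules. The yolk genes vit-2 and vit-6, active in the adult intestine, held 181 and 294 reads in T1 replicate 3 and, in T1/V1 replicates 1 and 2, 21 and 0 reads for vit-2 and 19 and 44 for vit-6, while vit-3 and vit-4 had no cluster in any list. Positions are quoted as the authors listed them, on a genome build that the labels and headers do not name.

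Reads were concentrated on a few genes. The 12 genes with the most consensus reads, in order mir-77, mir-43, mir-72, mir-75, mir-61, mir-50, mir-90, mir-79, mir-74, mir-57, mir-250 and mir-63, held 4311 reads or 65% of the consensus reads on the 62 genes. The median gene of the 59 held 62 consensus reads, with a lowest value of 2 and a highest of 702, and 13 genes held fewer than 20. The median of the other 38 miRNA genes was 454 consensus reads, with values of 24 to 1856.

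**Figure D1:**
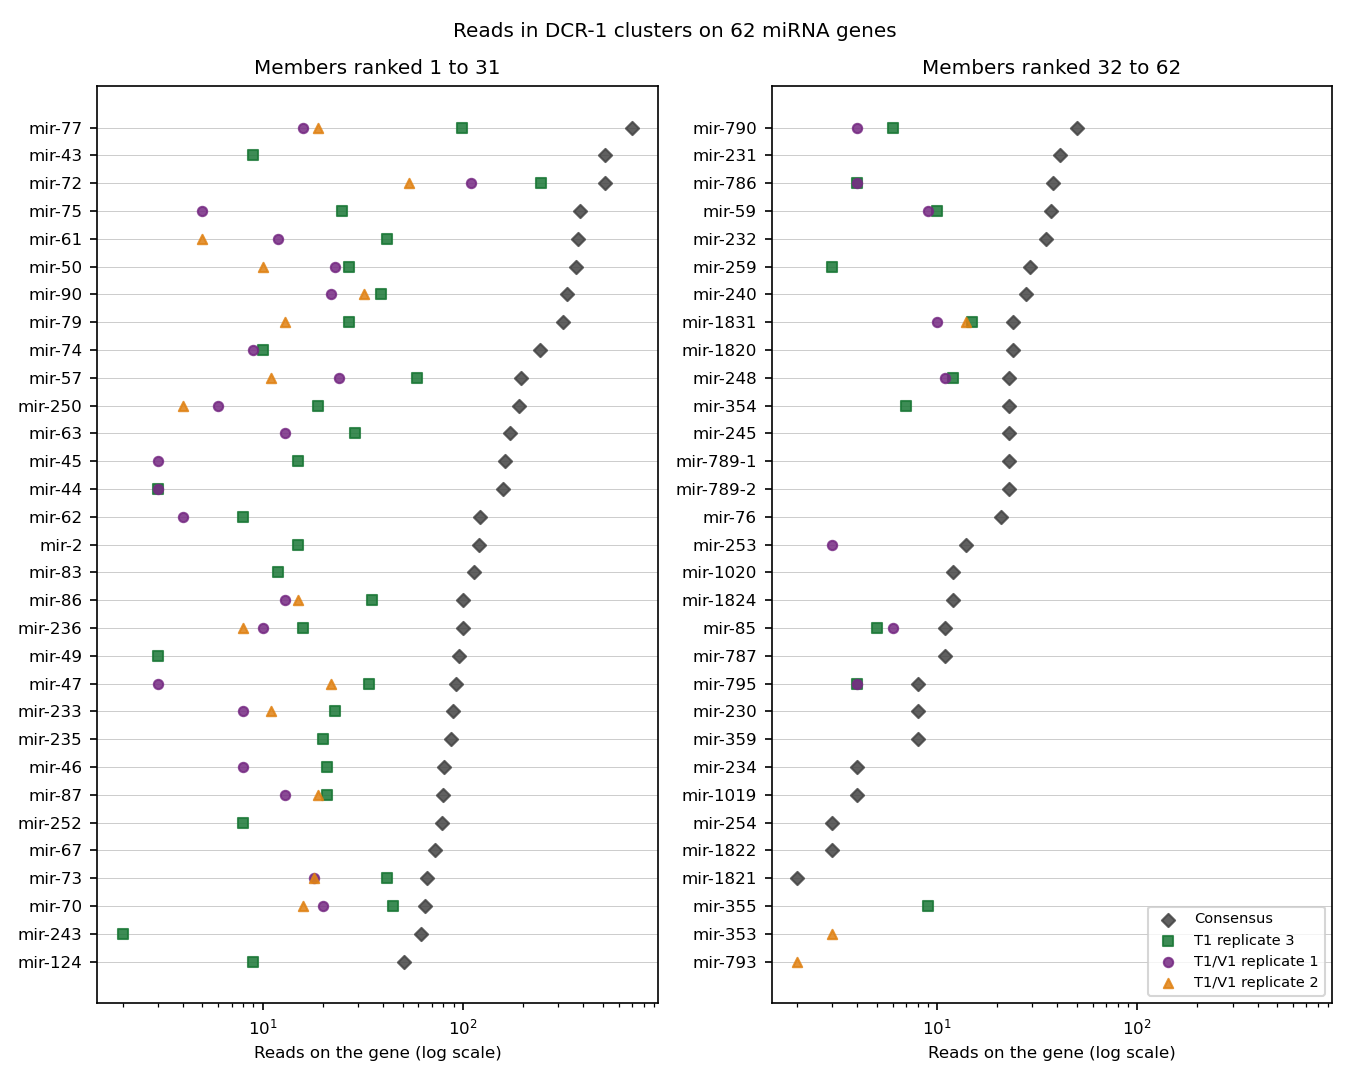
Reads in clusters on each of the 62 genes (log scale), ordered by consensus reads, for the pooled consensus list (diamonds), T1 replicate 3 (squares), T1/V1 replicate 1 (circles) and T1/V1 replicate 2 (triangles); a missing symbol means no listed cluster. Among these genes, mir-77 leads the consensus list with 702 reads, and mir-72 leads every library with 245, 110 and 54 reads. The genes mir-355, mir-353 and mir-793 have no consensus symbol.

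Of the 62 genes, the one with the most consensus reads was mir-77, with 702 reads and 626 conversions. It lay on the plus strand of chromosome II, 12519202 to 12519282. It held 99 reads in T1 replicate 3, and 16 and 19 in T1/V1 replicates 1 and 2. The T1 library was thus the highest, also as a share of reads, with 0.396% (interval 0.322% to 0.482%) in T1 replicate 3, against 0.204% (0.117% to 0.332%) and 0.175% (0.106% to 0.274%) in the T1/V1 replicates. The intervals of T1 replicate 3 and T1/V1 replicate 1 overlapped.

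In each library list, mir-72 held the most reads of the 62 genes instead. Its cluster on the plus strand of chromosome II, 2452854 to 2452920, held 512 consensus reads, and its library clusters held 245 reads in T1 replicate 3, and 110 and 54 in T1/V1 replicates 1 and 2. As shares these were 0.98% (0.862% to 1.11%) in T1 replicate 3, 1.41% (1.16% to 1.69%) in T1/V1 replicate 1 and 0.498% (0.375% to 0.65%) in T1/V1 replicate 2. The T1 value lay between the T1/V1 values, none of the 3 intervals overlapped, and the T1/V1 replicates were the farthest apart.

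The mir-72 family, named from background knowledge of shared seeds, holds mir-73 and mir-74 as well. These lie together on the plus strand of the X chromosome, at 2368779 to 2368845 for mir-73 and 2369054 to 2369121 for mir-74, with 208 bases between their clusters. The gene mir-73 held 66 consensus reads and 42 reads in T1 replicate 3, and 18 and 18 in T1/V1 replicates 1 and 2. The gene mir-74 held 242 consensus reads but 10 in T1 replicate 3, 9 in T1/V1 replicate 1 and no cluster in T1/V1 replicate 2. So these neighbours stood in opposite order in the pooled list and in the library lists that held both, T1 replicate 3 and T1/V1 replicate 1. The family took 6.88% of the miRNA reads in T1 replicate 3, 7.97% and 5.97% in the T1/V1 replicates and 3.03% in the consensus list.

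Farther along the same strand, 3334 bases after mir-74, lay mir-75, at 2372456 to 2372530, of a family with mir-79. In worms mir-79 acts in the epidermis on glycan pathways that guide neuronal migration. The gene mir-75 held 386 consensus reads, 25 in T1 replicate 3, 5 in T1/V1 replicate 1 and no cluster in T1/V1 replicate 2. The gene mir-79, on chromosome I, 9332952 to 9333021, held 318 consensus reads, 27 in T1 replicate 3, 13 in T1/V1 replicate 2 and no cluster in T1/V1 replicate 1. Each of these genes was therefore listed in the T1 library and in a different T1/V1 library.

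The mir-2 family, which is conserved among invertebrates, has 3 genes among the 62, all listed in T1 replicate 3, while mir-250 alone was listed in either T1/V1 library. Its relative mir-797 had no cluster in any list. The gene mir-43, which follows mir-42 in a gene cluster on chromosome II, held 515 consensus reads at 11889843 to 11889917. In T1 replicate 3 it held 9 reads in 2 clusters, and neither T1/V1 library listed it. The gene mir-2, in an intron of the phosphatase subunit gene ppfr-1 on chromosome I, 9372772 to 9372837, held 121 consensus reads and 15 in T1 replicate 3. The gene mir-250 held 192 consensus reads, 19 in T1 replicate 3, and 6 and 4 in T1/V1 replicates 1 and 2.

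The mir-44 family holds mir-44, mir-45 and mir-61 among these genes. Its member mir-61 is known as a target of LIN-12/Notch signalling in vulval precursor cells. It lay on the minus strand of chromosome V, 11770051 to 11770117, 61 bases from mir-250 at 11769907 to 11769989. The gene mir-61 held 377 consensus reads, 42 in T1 replicate 3, and 12 and 5 in T1/V1 replicates 1 and 2. Close behind mir-43, with 31 bases between the clusters, mir-44 held 158 consensus reads and 3 each in T1 replicate 3 and T1/V1 replicate 1. The gene mir-45, on the opposite strand of the same chromosome at 11880875 to 11880947, held 162 consensus reads, 15 in T1 replicate 3 and 3 in T1/V1 replicate 1. The genes mir-44 and mir-45 are known to give the same mature miRNA, so the split of its reads between them is uncertain.

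The mir-50 family was covered by mir-50, mir-90 and the mirtron mir-62. The gene mir-50, in intron 8 of Y71G12B.11 on chromosome I, 1738648 to 1738726, held 368 consensus reads with 318 conversions, 27 in T1 replicate 3, and 23 and 10 in T1/V1 replicates 1 and 2. The gene mir-90, on chromosome III, 8873906 to 8873976, held 331 consensus reads, 39 in T1 replicate 3, and 22 and 32 in T1/V1 replicates 1 and 2. The family took 1.71% of the miRNA reads in T1 replicate 3 and 2.85% and 3.48% in the T1/V1 replicates. It took 3.03% in the consensus list. Its T1 share was below both T1/V1 shares, with no test made.

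The families of 2 listed genes differed in how they were covered. The genes mir-46 and mir-47 held 81 and 92 consensus reads, and mir-47 held 34 reads in T1 replicate 3, and 3 and 22 in T1/V1 replicates 1 and 2. The genes mir-49 and mir-83, relatives of vertebrate miR-29, held 96 and 114 consensus reads but were listed with 3 and 12 reads in T1 replicate 3 and in neither T1/V1 library. The genes mir-87 and mir-233 were listed in all 3 libraries, with 21 and 23 reads in T1 replicate 3, 13 and 8 in T1/V1 replicate 1 and 19 and 11 in T1/V1 replicate 2. The genes mir-231 and mir-787 held 41 and 11 consensus reads and had no library cluster.

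Several genes are known for their place of expression or for relatives in other animals. The gene mir-57, which acts with a Hox gene in the posterior body, held 195 consensus reads on chromosome II, 7850452 to 7850512, 59 in T1 replicate 3, and 24 and 11 in T1/V1 replicates 1 and 2. The sensory neuron miRNA gene mir-124, in intron 4 of the channel gene trpa-1, held 51 consensus reads and 9 in T1 replicate 3. The gene mir-235, of the miR-92 family and known for holding newly hatched larvae in arrest without food, held 87 consensus reads and 20 in T1 replicate 3. Neither mir-124 nor mir-235 had a T1/V1 cluster. The miR-200 relative mir-236 was listed everywhere, with 100 consensus reads, 16 reads in T1 replicate 3, and 10 and 8 in T1/V1 replicates 1 and 2.

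The gene mir-243 gives a miRNA known to be loaded into the siRNA Argonaute RDE-1. It held 62 consensus reads with 51 conversions on chromosome IV, 4450791 to 4450816, and 2 reads in T1 replicate 3. The gene mir-786, needed in the intestine for the defecation rhythm, and its neighbour mir-240 lie 61 bases apart on the X chromosome and held 38 and 28 consensus reads. Only mir-786 of this pair was listed in libraries, with 4 reads each in T1 replicate 3 and T1/V1 replicate 1. The gene mir-67 held 73 consensus reads in intron 3 of zmp-1 with conversions from 3 libraries, yet it had no cluster in any library list.

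Mirtrons were sparsely covered, apart from mir-62 in the consensus list. Of the 4 mirtrons considered, 3 had a consensus cluster and mir-1018 had a cluster in no list, and together they held 138 reads or 2.08% of the consensus reads on the 62 genes. The gene mir-62, in intron 3 of the glycosyltransferase gene ugt-50 on the X chromosome, 12692511 to 12692587, held 122 of these. In T1 replicate 3 it had a cluster of 3 reads at the 5' splice site and one of 5 reads at the 3' splice site, and in T1/V1 replicate 1 one of 4 reads at the 3' splice site. The gene mir-1020, in intron 6 of T16G12.1 at chromosome III, 10047665 to 10047709, held 12 reads, and mir-1019, in intron 5 of the kinase gene dyf-5 at chromosome I, 9361588 to 9361612, held 4. Neither had a library cluster.

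Position at a splice site set the mirtrons apart from other intronic genes in the authors' annotation, as the definition of a mirtron implies. In all, 17 of the 62 genes lay in introns on the same strand. Clusters of 3 of the 3 listed mirtrons carried a splice site label, and those of 0 of the 14 other intronic genes did. The intronic genes other than mirtrons with a consensus cluster, 13 in number, had a median of 65 consensus reads, with values of 3 to 368. The 43 genes outside introns had a median of 50, with values of 2 to 702, and these ranges overlapped almost fully. A host transcript's own reads were not separated from those of the hairpin.

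Many of the 62 genes were listed in the pooled list alone. There were 19 genes with no cluster in any library list, 14 with a cluster in 1 library, 14 in 2 and 15 in all 3. Of the other 38 miRNA genes, 0 had no library cluster and 27, or 71.1%, had one in all 3, against 24.2% of the 62. The other miRNA genes also held more reads, as given above, so listing and depth were not separated. Among the 15 genes listed in all 3 libraries the consensus values ran from 24 to 702 reads, with a median of 100. Without T1/V1 replicate 2, 28 genes had a cluster in both libraries left.

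The 19 genes listed only in the pooled list held 2 to 73 consensus reads, with a median of 12. Of these, 7 had conversions from 3 libraries, namely mir-67, mir-230, mir-232, mir-245, mir-789-1, mir-789-2 and mir-1824, 10 had them from 2 and 2 from 1. For comparison, the T1 list held a cluster of 2 reads on mir-243. The genes mir-789-1 and mir-789-2 share both of their clusters, of 15 and 8 reads on chromosome IV, since each cluster names both, and they cannot be separated. In the other direction, mir-355 with 9 reads in T1 replicate 3 and mir-353 and mir-793 with 3 and 2 reads in T1/V1 replicate 2 had no consensus cluster.

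Some of the rest are uncertain as miRNA signal. The mir-354 cluster of 23 consensus reads was 194 nt long and overlapped exon 4 and the stop codon of the ribosomal protein gene rps-20, so its reads cannot be assigned to the hairpin. The mir-353 cluster lay in an intron of another ribosomal protein gene, rpl-24.1. Of the genes with numbers above mir-1800, mir-1820 and mir-1831 held 24 consensus reads each, mir-1824 held 12, mir-1822 held 3 and mir-1821 held 2. Every mir-1831 cluster also carries the snRNA class, with the gene sup-39, so its reads, here and in the results below, cannot be assigned to the hairpin. Among these genes, mir-1831 was the only one with library clusters, with 15 reads in T1 replicate 3, and 10 and 14 in T1/V1 replicates 1 and 2.

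Consensus reads per gene stood in no fixed ratio to library reads. Over the 40 genes with both, the consensus reads divided by the reads summed over the library lists had a median of 4.71, a lowest value of 0.615 and a highest of 57.2. For the other 38 miRNA genes the median was 4.48, with values of 0.922 to 26.1. The highest ratios were those of mir-43, 57.2, mir-49, 32, and mir-243, 31, followed by mir-44 with 26.3. Ratios below 1 were found for mir-70, with 65 consensus and 81 library reads, mir-73, with 66 and 78, and mir-1831, with 24 and 39. A pooled cluster therefore could hold fewer reads than the same gene's library clusters. The order of genes by consensus reads is not an order by library reads, and the labels and headers do not say how the authors pooled the libraries.

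**Figure D2:**
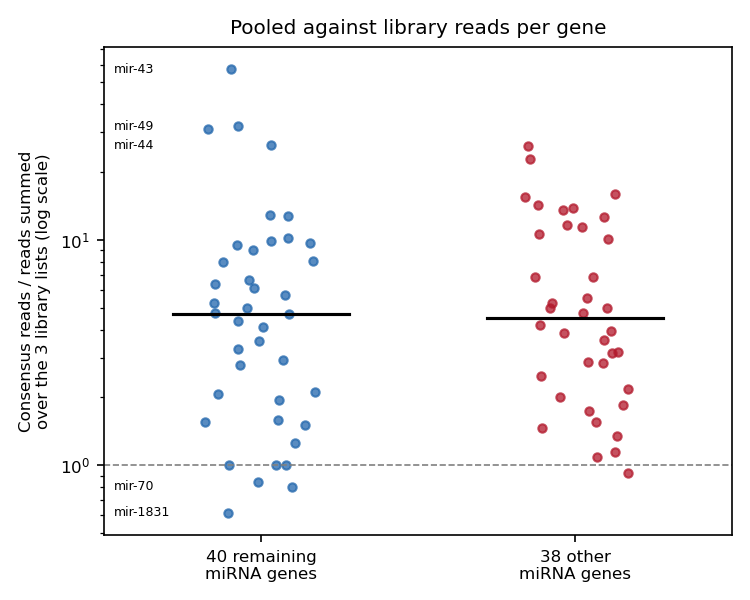
Consensus reads divided by the reads summed over the 3 library lists (log scale), 1 point per gene, for the 40 remaining miRNA genes with both values and the 38 other miRNA genes; black bars are medians and the dashed line marks a ratio of 1. The medians are 4.71 and 4.48, mir-43 stands highest at 57.2 and mir-1831 lowest at 0.615.

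The share of miRNA reads on the 62 genes barely moved between libraries. It was 24% (22.8% to 25.3%) in T1 replicate 3, against 22.9% ± 0.038 (SD, n = 2) in the T1/V1 libraries, whose intervals were 21% to 25% and 20.5% to 25.3%. In the consensus list it was 24.5% (24% to 25%). All of these intervals overlapped. Nucleases were not tested against each other, because a permutation over 3 libraries cannot give a p-value under 1 in 3.

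Single genes were compared between libraries by Fisher's exact test of the gene's reads against the library's other reads, over all genes of any class with a cluster in both libraries. This compares libraries, not nucleases. Between T1 replicate 3 and T1/V1 replicate 1, 4 of 28 tested genes differed at an adjusted p under 0.05, against 30.2% of all 222 genes tested. Between T1 replicate 3 and T1/V1 replicate 2, 5 of 16 differed, against 41.5% of 212. Between T1/V1 replicates 1 and 2, which share their labels, 4 of 15 differed, against 24.7% of 154. The counts on the 62 genes were thus near or below the background, and libraries of the same kind differed too.

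Between T1 replicate 3 and T1/V1 replicate 1, mir-77 was higher in T1 replicate 3, with a log2 ratio of shares of 0.95 (Fisher's exact test, adjusted p = 0.04). The genes mir-50, mir-72 and mir-248 were lower, by log2 ratios of -1.44, -0.52 and -1.55 (Fisher's exact test, adjusted p = 0.0042, 0.0104 and 0.0418). Higher shares were found for 1 of 28 genes against a background of 5.86%, and lower ones for 3 of 28 against 24.3%. The next in order, mir-47 with a log2 ratio of 1.83, did not pass (Fisher's exact test, adjusted p = 0.0614).

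Between T1 replicate 3 and T1/V1 replicate 2, mir-72, mir-77, mir-61 and mir-57 were higher in T1 replicate 3, with log2 ratios of 0.98, 1.18, 1.86 and 1.22 (Fisher's exact test, adjusted p = 1.33e-05, 0.00208, 0.0072 and 0.0233). The gene mir-90 was lower, with a log2 ratio of -0.92 (Fisher's exact test, adjusted p = 0.0244). That is 4 of 16 higher against a background of 15.6%, and 1 of 16 lower against 25.9%. The genes called in both comparisons with the T1 library were mir-72 and mir-77, and mir-72 changed sign between them.

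Between T1/V1 replicates 1 and 2, mir-72, mir-57 and mir-50 were higher in replicate 1, with log2 ratios of 1.5, 1.59 and 1.67 (Fisher's exact test, adjusted p = 1.71e-09, 0.00999 and 0.011). The gene mir-47 was lower in replicate 1, with a log2 ratio of -2.41 (Fisher's exact test, adjusted p = 0.0101). It had 1 listed cluster of 3 reads in replicate 1, but 2 clusters with 22 reads in replicate 2. The counts are 3 of 15 against a background of 16.2% and 1 of 15 against 8.44%.

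Which genes were called depended on what the shares were taken of, while every gene called on all reads kept its direction. With miRNA reads in place of all reads as the denominator, log2 ratios moved by 0.35, -0.63 and -0.98 in the 3 comparisons in the order above. The genes called between T1 replicate 3 and T1/V1 replicate 1 became mir-47 and mir-77, against a background of 13.1% of 61 miRNA genes. Both were higher in T1 replicate 3, where the background was 8.2% higher and 4.92% lower, and 0 were lower. Against T1/V1 replicate 2 they became mir-47, mir-87, mir-90 and mir-1831, all lower in T1 replicate 3, that is 0 higher and 4 lower of 16, against a background of 23.3% of 43, with 4.65% higher and 18.6% lower. Between the T1/V1 replicates mir-47 alone was called, lower in replicate 1, as 1 of 15 against 11.9% of 42, with 4.76% higher and 7.14% lower. So mir-47 was called in every comparison on that scale, though T1/V1 replicate 1 listed 1 cluster of it and the other libraries 2 each. The calls on mir-50, mir-57, mir-61, mir-72 and mir-248, and that on mir-77 against T1/V1 replicate 2, were lost.

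Along the hairpins, the arm with more reads in short library clusters was mostly the same in each library. Positions were taken on the 40 genes whose clusters from all lists together spanned 55 to 85 nt, with clusters of at most 40 nt assigned to the 5' or the 3' side of the midpoint and longer ones called spanning. In T1 replicate 3, 15 clusters lay on the 5' side, 16 on the 3' side and 9 spanned the locus. In T1/V1 replicate 1 the counts were 9, 14 and 5, and in T1/V1 replicate 2 they were 6, 9 and 3. Among 19 genes with short clusters in at least 2 libraries, the arm with more reads was the same in every such library for 18. Of these, 7 used the 5' side and 11 the 3' side. Some rested on 2 libraries and few reads, as mir-44 with 3 reads in each and mir-786 with 4 in each. This count was not tabulated for the other miRNA genes. Among them, by the same rule, let-7, mir-34, mir-48, mir-55, mir-56, mir-64, mir-65, mir-66, mir-84, mir-228, mir-239a, mir-241 and mir-246 also kept their arm. The gene mir-244 was tied in T1 replicate 3, with 10 reads on each side. The genes mir-1 and mir-39 did not keep their arm, mir-1 through 2 reads in T1/V1 replicate 2. Ends of clusters come from the reads, and annotated hairpin ends were not used here.

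**Figure D3:**
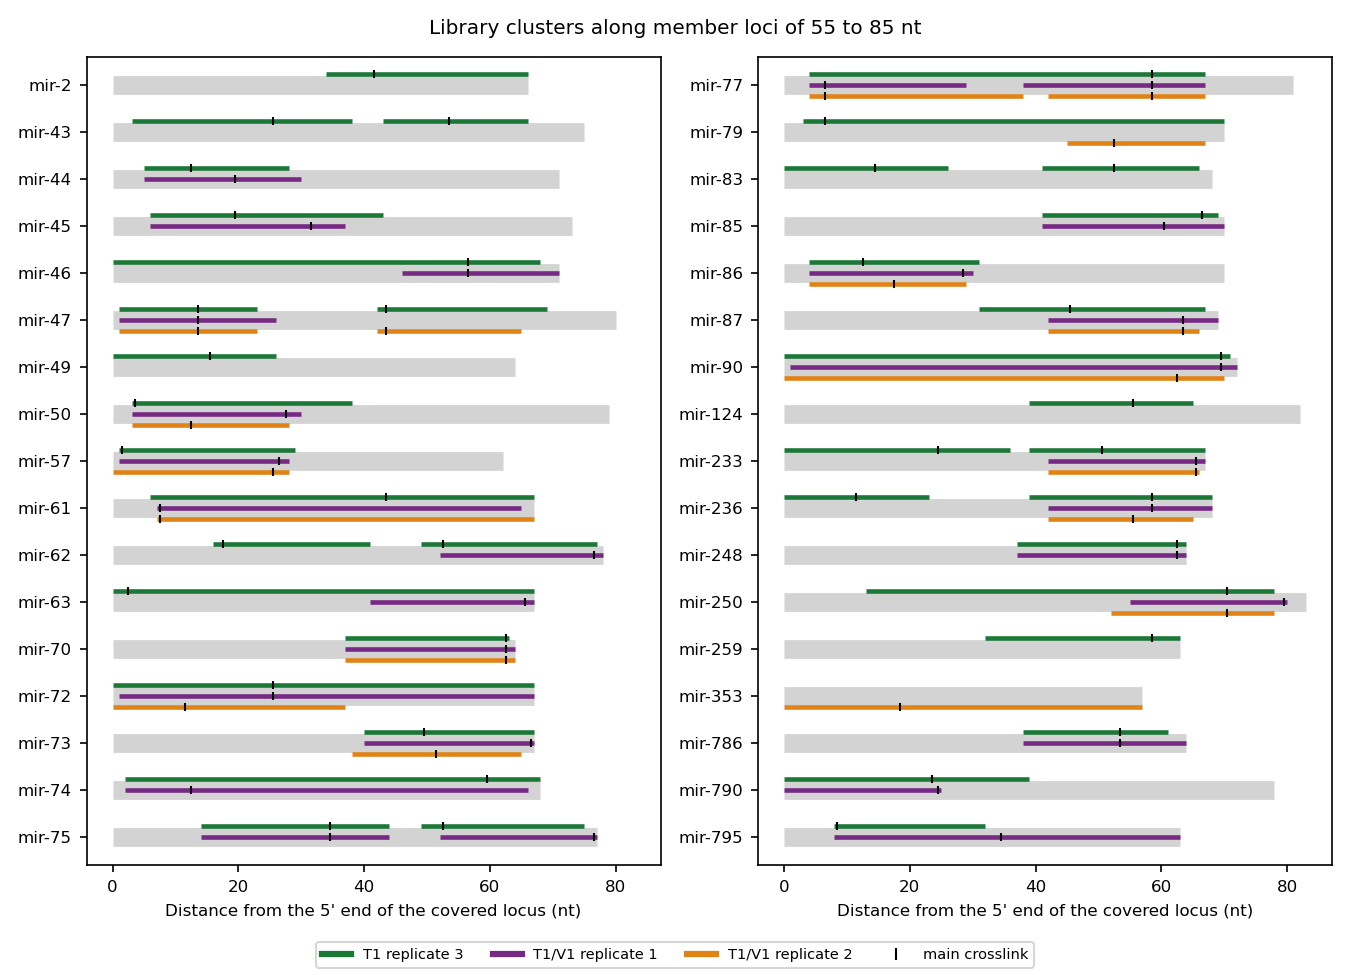
Library clusters along the 34 loci of 55 to 85 nt that had one, as distance from the 5' end of the covered locus (nt); grey bars are the span covered in all lists, coloured bars the clusters of T1 replicate 3, T1/V1 replicate 1 and T1/V1 replicate 2 from top to bottom, and black ticks the authors' main crosslink position. Clusters of mir-50, mir-57 and mir-86 lie on the 5' side in every library and those of mir-70, mir-73 and mir-87 on the 3' side, while mir-61 and mir-90 are spanned.

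The genes mir-50, mir-57 and mir-86, whose abundant strand is known to come from the 5' arm, had short clusters on the 5' side in all 3 libraries and none on the 3' side. For mir-86 these held 35 reads in T1 replicate 3, and 13 and 15 in T1/V1 replicates 1 and 2. The genes mir-70, mir-73 and mir-87 had them on the 3' side alone in all 3 libraries, with 45, 42 and 21 reads in T1 replicate 3, 20, 18 and 13 in T1/V1 replicate 1 and 16, 18 and 19 in T1/V1 replicate 2. Library clusters of mir-124 and mir-236 held more reads on the 3' side too, with 9 reads on that side for mir-124 and 13 there against 3 on the 5' side for mir-236 in T1 replicate 3. For these 2 genes the abundant strand is known to be that of the 3' arm.

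The 1 exception to a constant arm was mir-47. Its 3' side held 31 reads in T1 replicate 3 and 19 in T1/V1 replicate 2, and had no listed cluster in T1/V1 replicate 1. Its 5' side held 3 reads in each of the 3 libraries. The difference between libraries in this gene's listed total thus lay on its 3' side, where a missing cluster gives no depth. Comparisons of mir-47 with T1/V1 replicate 1 therefore set its 5' side alone against both sides. For mir-44 and mir-45, the short clusters lay on the 5' side only, with 3 and 15 reads in T1 replicate 3 and 3 each in T1/V1 replicate 1. The mature sequence these genes are known to share comes from the 3' arm, and the part of reads that map to both genes in this was not tested.

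In the pooled list, arms could be set side by side where a gene had a separate cluster on each. The 5' side held more reads in mir-49, with 84 on the 5' side and 12 on the 3' side, in mir-86, with 80 and 20, in mir-233, with 59 and 30, and in mir-786, with 21 and 17. The 3' side held more in mir-70, with 2 on the 5' side and 63 on the 3' side, in mir-236, with 39 and 61, in mir-240, with 11 and 17, and in mir-85, with 3 and 8. For mir-233 the order was the reverse in T1 replicate 3, with 6 reads on the 5' side and 17 on the 3' side, and the T1/V1 libraries had only 3' clusters, of 8 and 11 reads. For mir-786 the library clusters lay on the 3' side alone, with 4 reads each in T1 replicate 3 and T1/V1 replicate 1.

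Main crosslinks fell on both arms. On the 28 consensus clusters of 55 to 85 nt of the 62 genes, the authors' main crosslink position lay on the 5' side in 19, and for the other miRNA genes it did so in 18 of 29. Library clusters did not always share that position. It lay within 2 nt of the consensus position in 23 of 47 clusters of T1 replicate 3, 13 of 31 of T1/V1 replicate 1 and 8 of 18 of T1/V1 replicate 2. The genes mir-70 and mir-73 show both cases in the map of library clusters: the crosslink of mir-70 lay at one position in all 3 libraries, and that of mir-73 at a different one in each.

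Conversions were more frequent in the pooled list than in the libraries. Clusters of the 62 genes had a median of 55.9 T-to-C conversions per 100 edits in the consensus list. The library medians were 35.8 in T1 replicate 3, and 26.7 and 21.1 in T1/V1 replicates 1 and 2. For the other miRNA genes the medians were 50.5, 29.4, 26.7 and 22.2 in the same order of lists. Over all clusters of every class the medians were 50, 40, 42.9 and 28.6, so the 62 genes lay above that median in the consensus list and below it in each library. In the conservative list they lay below it, with 55.9 against 60 over all clusters. The other miRNA genes lay on the same side of the median in every list, with 50.5 in the conservative list. The clusters of the 62 genes and of the other miRNA genes overlapped widely in every list, and no test was made, since clusters of a library are not replicates.

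**Figure D4:**
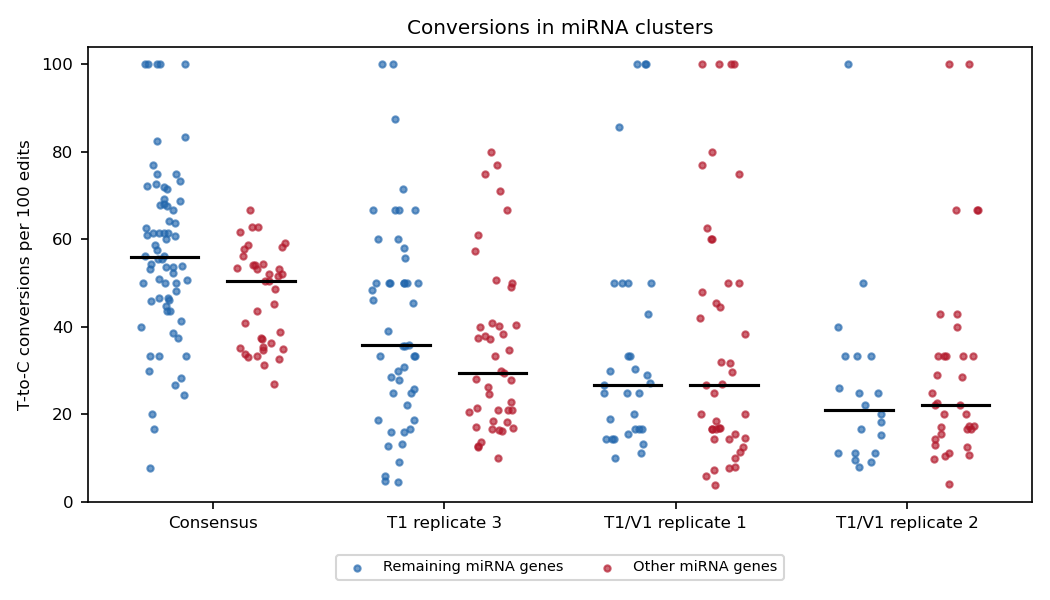
T-to-C conversions per 100 edits, 1 point per cluster, for clusters on the remaining miRNA genes (blue) and the other miRNA genes (red), in the consensus list, T1 replicate 3, T1/V1 replicate 1 and T1/V1 replicate 2; black bars are medians. The blue medians are 55.9, 35.8, 26.7 and 21.1, and the red ones 50.5, 29.4, 26.7 and 22.2.

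In T1/V1 replicate 1, 51.6% of the clusters on the 62 genes rested on a single conversion, against 20.9% on the other miRNA genes. The shares were 40% against 17.1% in T1/V1 replicate 2, and 14.6% against 6.98% in T1 replicate 3. A median cluster on the 62 genes had 10 reads in T1 replicate 3, and 9 and 12 in T1/V1 replicates 1 and 2, against 58, 15 and 12 on the other miRNA genes. Conversion values of single library clusters are therefore coarse.

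Among the 46 genes with at least 20 consensus reads, the conversions per 100 edits ran from 24.4 to 76.7. The lowest were mir-73 with 24.4, mir-1831 with 26.7 and mir-72 with 28.4. The highest were mir-232 with 76.7, mir-76 with 75 and mir-245 with 73.1, none of which had a library cluster. These 3 rested on few edits, with 33 conversions in 43 edits, 12 in 16 and 19 in 26. The value of mir-1831 was 4 in 15, while that of mir-72 was 213 in 750. Their family member mir-74 stood far above mir-72 and mir-73, with 63.7. The value was higher in the consensus list than over the summed library clusters for 32 of 40 genes, as for mir-2 with 53.7 against 5.88. The library value of mir-2 was 1 conversion in 17 edits, from T1 replicate 3 alone. Conversions per 100 edits were thus not always higher in the consensus list. The consensus value was lower for mir-43, mir-44, mir-45, mir-75, mir-243, mir-354 and mir-795, and equal for mir-1831. Across the 40 genes, which share their libraries, the ratio of consensus to library reads and the consensus conversions per 100 edits had a Spearman's rho of 0.618, and 0.678 across the other 38 miRNA genes.

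The RNAs of the miRNA machinery genes carried few reads. Consensus clusters lay on the Argonaute gene alg-2 and the exportin gene xpo-3, with 2 reads each, and none on alg-1, rde-4, drsh-1 or pash-1. No library list had a cluster on any of these 6. The share of all genes without a cluster was not set beside this, so it is not read as particular to them. The gene dcr-1 itself held 35 consensus reads in 8 clusters and 7 reads in T1 replicate 3, and no T1/V1 cluster.

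Several miRNA genes looked up by name had no cluster. Of 69 names listed for this look-up, for most of which no role is given here, 48 had a cluster in at least 1 list. The 21 others included mir-247 and mir-797, relatives of mir-44 and mir-2, mir-251, a relative of mir-252, which itself held 79 consensus reads, and mir-791, which acts in carbon dioxide-sensing neurons. A list of called clusters gives no depth at a gene without one, so no limit can be set for these. The lists hold 100 miRNA genes, set beside 260 in a later reference annotation.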

How the data were processed

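Per the submitters' processing notes, Bowtie2 2.1.0 was used, and per the file headers and attributes the authors called clusters with a PAR-CLIP program, every line carrying an estimated FDR of 5, read as percent. Each deposited cluster carries a count of T-to-C conversions, of reads and of all edits, not normalised, and the authors' entropy score, not used here. Library lists hold clusters of 1 library, and the consensus and conservative lists those of pooled libraries. Samples were grouped by their titles.

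A cluster of miRNA class was assigned to every miRNA gene it names. The members, families and lists were chosen with earlier results of these data known. Families came from background knowledge, since no mature sequences were used. Genes named were the 12 with most consensus reads, mirtrons, family members, the strongest differences between libraries, the extremes of conversions and genes with described roles. Conversions per 100 edits are conversions divided by edits. Fisher's exact tests were two-sided, adjusted by Benjamini-Hochberg over all genes tested, each non-miRNA cluster being given to 1 gene. They were also run on simulated reads drawn independently. That simulation held no PCR copies and no spread between libraries, so it cannot show how either affects the p-values. Alternatives changed the list, read minimum, shared clusters, denominator, locus window and libraries. Depth was 7829 to 24992 listed reads per library. Tests and intervals used SciPy 1.17.1 and statsmodels 0.14.6, tables used pandas 2.3.3 with numpy 2.4.6, and plots used matplotlib 3.10.9, under Python 3.11.15.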

Additional observations from a re-analysis of the deposited data

Results flagged for a closer look

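Reads also lay on 3 genes with a mir- name whose clusters do not carry the miRNA class, and which are therefore not among the 62. They are given because each had more than 3 consensus reads outside the measurements above. The gene mir-2214, in intron 3 of B0361.11 on chromosome III, 7278640 to 7278709, held 145 consensus reads with 25 conversions from 3 libraries, 54 reads in T1 replicate 3, 32 in T1/V1 replicate 2 and no cluster in T1/V1 replicate 1. The gene mir-5592-1 held 32 consensus reads with 20 conversions on the X chromosome, and 5 reads in T1 replicate 3. The same cluster is annotated as antisense of mir-5592-2, with the same 32 reads. The gene mir-5551 held 16 consensus reads, in a promoter region of H27C11.1, and had no library cluster. No untagged control was analysed here, so a background level could not be set beside these values.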

How the results depend on the processing

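The count of 59 genes with a consensus cluster stayed within 1.5 times in the conservative list, with a minimum of 5 reads and with clusters naming 1 gene. So did the 13 genes found in all libraries with a minimum of 5 reads. When a library was left out, 15 to 28 genes had a cluster in every library left, the highest value being that without T1/V1 replicate 2. With only clusters that name 1 miRNA gene, the share of miRNA reads was 26.5% in the consensus list and 23.2% as the T1/V1 mean, and leaving out either T1/V1 replicate gave 22.9% and 22.9%. With miRNA reads as the denominator, 2 genes in place of 4 differed between T1 replicate 3 and T1/V1 replicate 1, and 1 in place of 4 between the T1/V1 replicates. The cause was not tested, beyond the log2 shifts given with these comparisons. A minimum of 10 reads over both libraries left these counts as they were. For single genes under these settings, 16 calls were kept, 10 were lost, 4 were gained, 4 values stayed without a call and 0 changed direction. The median conversions and the count of crosslinks on the 5' side moved by less than the spread, or stayed within 1.5 times, under each setting tried. No paired analysis was possible because the T1 and T1/V1 libraries share no replicate number. Depth limits single genes, since a median library cluster on these genes held 9 to 12 reads.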
